A study of Rattus norvegicus with 10 samples.

Results

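Ion channels, pumps, aquaporins and connexins were examined in the lens capsules of rats. The members were the genes of the deposited table whose name starts with a channel, pump, aquaporin, connexin or neurotransmitter receptor stem (among them Kcn, Scn, Clcn, Clic, Gja, Aqp, P2r, Itpr, Gri, Gabr, Chrn, Atp1, Atp2, Atp8 and Fxyd), leaving out Gja1. The rule gave 58 of 3334 genes. Of these, 51 encode a channel, a pump or flippase, a receptor or a regulator of one, and 7 only share the letters of a stem (Glrx2, Glrx3 and Glrx5, which are glutaredoxins, and Tmem160, Tmem161a, Tmem164 and Tmem167a). These 7 are kept in the counts of all members and described last.

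RNA was sequenced from male Sprague-Dawley rats aged 6 weeks, with no genotype or drug named for either group. The Hypothermia Group held 5 rats whose isolated lenses stayed in Hibernate-A medium at 4°C for 8 h before the capsules were taken. The Normal Group held 5 rats whose capsules were taken straight after death, without medium. Each sample was the 2 capsules of 1 rat, so temperature, time outside the eye and medium cannot be told apart. The lens capsule is the basement membrane of the lens, and the epithelial cells stay attached to it when it is peeled off.

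The lens has no blood vessels, and its clarity depends on a circulation of ions and water that channels and pumps keep going. The sodium pump works mostly in the epithelium at the surface, potassium channels set the membrane potential, gap junctions built from connexins join the fibre cells to one another and to the epithelium, and aquaporins let water follow the ions. Calcium pumps keep free calcium in the cells low, and FXYD proteins are small membrane proteins that sit beside the sodium pump and tune it.

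The listed genes of a rat summed to 9026144 to 12415121 counts in the Hypothermia Group and to 4792595 to 8177803 in the Normal Group, and counts were divided by the size factors behind the deposited group means. The table held genes that the study had selected on this same contrast, and 3221 of 3222 tested genes had an unadjusted p under 0.05 (edgeR). Counts of calls among the members are therefore descriptions of a selected list and no independent evidence, and a channel gene outside the table was not analysed here. Of 12 lens fibre marker genes 11 were listed, all called higher in the Hypothermia Group, and they summed to 4059657 to 8588775 normalized counts there against 737180 to 3046434 in the Normal Group (highest in Normal 1). Gja3 is itself one of these 11. Of 8 lens epithelium markers 4 were listed, none of them called by edgeR although all had an unadjusted p under 0.05, with sums of 39976 to 44224 against 49765 to 58778. Fbn1, a matrix gene, had 6352, 2570, 788, 27614 and 30055 normalized counts in Normal rats 1 to 5 and 882 to 4762 in the Hypothermia Group, so Normal 4 and Normal 5 stood apart. Of 11 markers of the retinal pigment epithelium 4 were listed, with sums of 29.6 to 124 normalized counts in the Hypothermia rats and 133 to 320 in the Normal rats, without overlap, and Pmel was called lower (-1.77 ± 0.42, edgeR adjusted p = 0.0202). The part of such cells in the members' values was not tested. The 6 blood and 6 immune markers were not among the genes analysed here. In bulk RNA, fewer cells of a type and less RNA per cell cannot be told apart.

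The members moved in both directions. Of 54 that could be tested, 20 were called higher in the Hypothermia Group (37%; 49.1% of all tested genes) and 11 were called lower (20.4%; 17.2% of all tested genes) at an adjusted p under 0.05 (quasi-likelihood test of edgeR, Benjamini-Hochberg). With TMM scaling, which moved the median of all genes by -0.29 on the log2 scale, the split was 10 higher and 19 lower. The median log2 fold change (Hypothermia against Normal) was -0.31 for the members and 0.36 for all tested genes. Calls with a log2 fold change above 1 were 9 among the members (9.81% of all tested genes) and calls below -1 were 2 (1.43%). Every Hypothermia rat lay above every Normal rat in 16 members (41.9% of all tested genes), and every one lay below in 12 (16.7%). Among the 47 tested members that are channels, pumps or their partners, 15 were called higher, 10 lower and 22 neither. Of these 47, 25 (53.2%) differed by more than 1 on the log2 scale in either direction, beside 16.2% of all tested genes. Their median standard error was 0.246, against 0.121 over all tested genes, in a list selected on this contrast. The part of the larger errors and the selection in this share was not tested. With TMM scaling, 7 of the 15 higher calls remained, among them Gja3, Aqp5, Fxyd1, Fxyd6, Clic3 and P2rx6, and all 10 lower calls remained among 18.

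**Figure D1:**
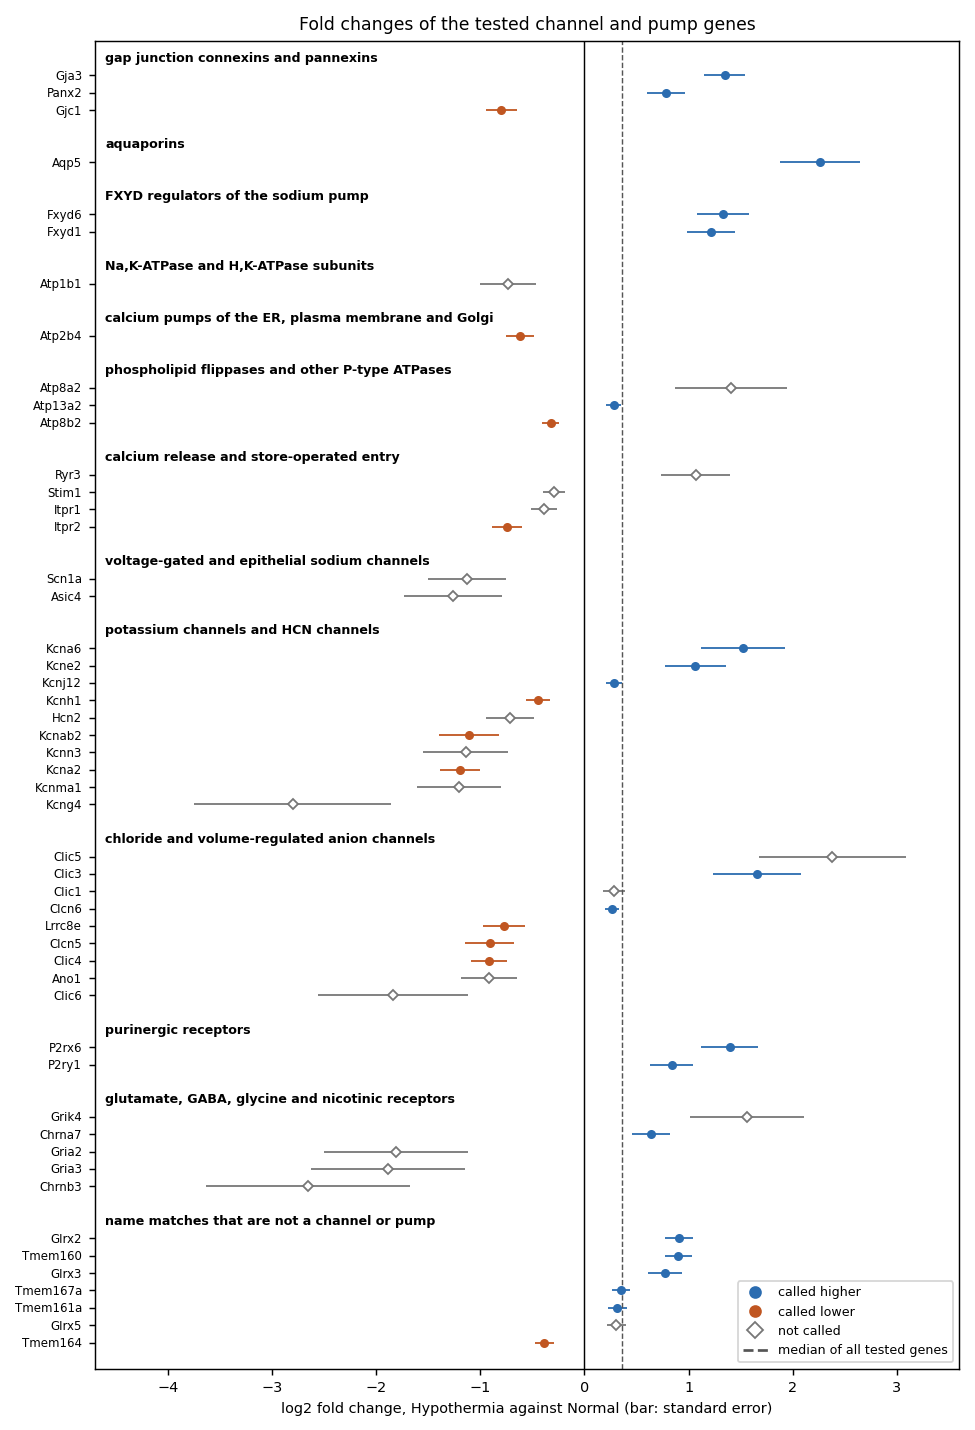
Log2 fold change of 50 of the 54 tested members, Hypothermia against Normal (horizontal axis), with the standard error as a bar, ordered by role (vertical axis). Filled points were called, open diamonds were not, and the dashed line marks the median of all tested genes at 0.36. Connexins, Aqp5 and both FXYD genes sit clear of 0, while Atp13a2, Kcnj12, Clic1 and Clcn6 lie close to the dashed line and change sign with TMM scaling.

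Among genes of this kind, the fibre connexin Gja3 had the highest level per length. Its FPKM (fragments for each kilobase of a gene's length, put on a common depth) averaged 249 over the 10 rats, ahead of Fxyd1 (109), the inward rectifier potassium channel Kcnj12 (87.5), Clic1 (52.4) and the sodium pump subunit Atp1b1 (44.2). In the Normal Group, Kcnj12 at 78.9 ± 4.16 FPKM (SD, n = 5) and Fxyd1 at 65.5 ± 19.8 differed by less than the spread of Fxyd1, as did Atp1b1 at 55.2 ± 8.30 and Clic1 at 47.3 ± 3.23 by less than the spread of Atp1b1. Neurotransmitter receptors lay at the other end, from 0.0878 (Grin1) to 1.83 FPKM (Chrna7). The median was 2.41 FPKM for the 51 genes and 12.1 for the whole table.

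**Figure D2:**
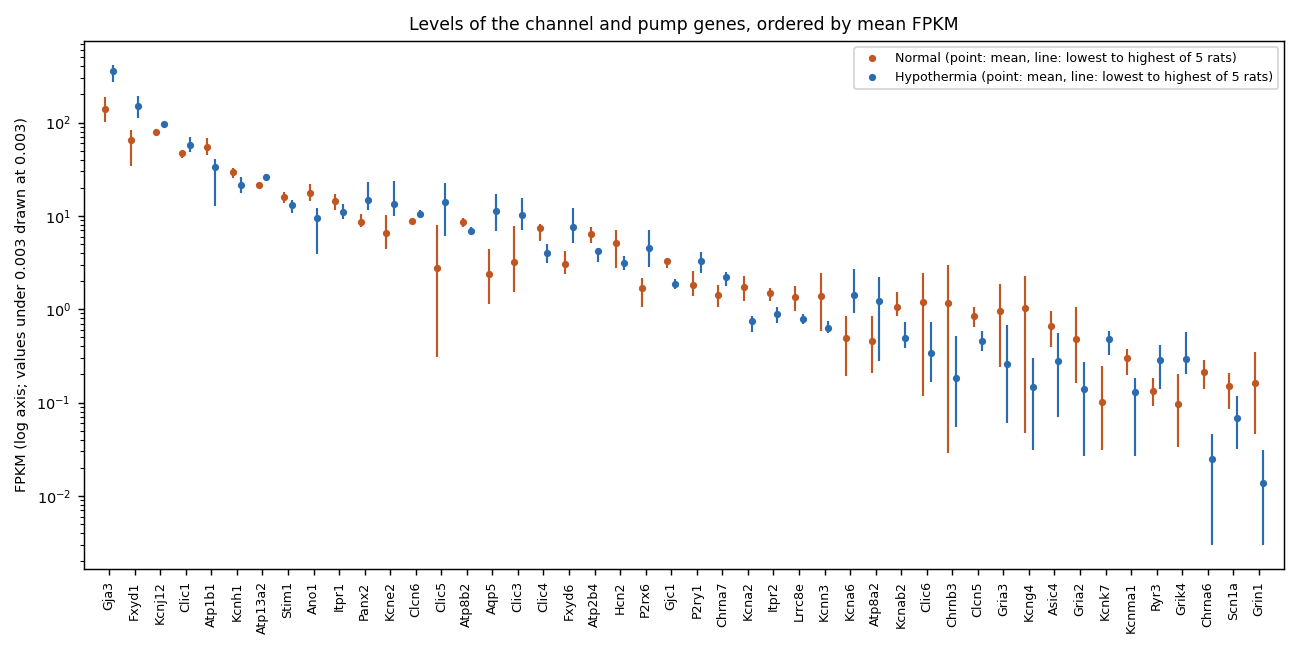
FPKM of 46 of the 51 channel, pump, receptor and regulator genes on a log axis (vertical), ordered along the horizontal axis by their mean over 10 rats. Points are group means and lines run from the lowest to the highest of 5 rats. Gja3 leads at 249 FPKM on average, and the neurotransmitter receptor genes other than Chrna7 average under 1 FPKM, with long lines.

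Errors after ± are standard errors for log2 fold changes and SD for FPKM throughout. Of 3 gap junction and pannexin genes, 2 were called higher and 1 lower (49.1% and 17.2% of all tested genes). Gja3 lies at chr15:37299738-37325178 (Rnor_6.0) and encodes the connexin that couples lens fibre cells. Normalized counts of Gja3 were 10599, 7353, 10670, 7118 and 10838 in Hypothermia rats 1 to 5 and 4938, 4182, 2722, 2623 and 3870 in Normal rats 1 to 5. The groups did not overlap, and within the Normal Group rats 3 and 4 were lowest. The difference was 2.54-fold, a log2 fold change of 1.34 ± 0.20 (SE; edgeR adjusted p = 0.0054), and the call held in all 10 fits that left out 1 rat. Panx2 (chr7:130042947-130053032), a pannexin that forms large-pore channels in single membranes, had 691, 560.3, 642, 584 and 1106 normalized counts in the Hypothermia rats and 507, 424, 365, 405 and 378 in the Normal rats. Its groups did not overlap either, with Hypothermia 5 well above the other rats, and the log2 fold change was 0.78 ± 0.18, edgeR adjusted p = 0.0184. The call was lost without Normal 4 or without Normal 5 (adjusted p up to 0.0518, edgeR). The sign turned (-0.48) only with scaling by listed-gene totals, which include the lens fibre genes called higher. Gjc1 (chr10:90781402-90912287), another connexin gene, best known from the heart's conduction system, was lower, with 71.1, 56.5, 56.5, 72.5 and 63.1 normalized counts against 118, 94.1, 121, 103 and 119.9. All 5 Normal rats were above all 5 Hypothermia rats, and the log2 fold change of -0.80 ± 0.15, edgeR adjusted p = 0.00876 held in all 10 fits that left out 1 rat. Gjc1 was a minor transcript beside Gja3, at 3.26 ± 0.353 FPKM (SD, n = 5) in the Normal Group against 141 ± 37.9 FPKM for Gja3.

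The water channel Aqp5 (chr7:141249044-141252578) was the only aquaporin that the rule found. Aquaporin 5 is known from salivary and lacrimal glands, cornea and lens. Normalized counts of Aqp5 were 345, 268, 163, 166 and 403 in Hypothermia rats 1 to 5 and 104, 47.5, 27.1, 38.4 and 64.1 in Normal rats 1 to 5. Every Hypothermia rat was above every Normal rat, and Normal 1 was the highest of its group, as it was for the fibre gene Mip (26749, 5996, 2179, 3733 and 14122 in the Normal rats). The 4.79-fold difference corresponded to a log2 fold change of 2.26 ± 0.38 (SE; edgeR adjusted p = 0.00701), and no left-out rat ended the call. In FPKM, Aqp5 was 11.3 ± 4.50 (SD, n = 5) against 2.38 ± 1.27.

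Both FXYD genes were higher in the Hypothermia Group, while the sodium pump subunit was not called in the reported fit. Fxyd1 (chr1:89484199-89488223) encodes phospholemman, which lowers the pump's activity until it is phosphorylated. Normalized counts of Fxyd1 were 1413, 983, 1702, 1156 and 1493 in the Hypothermia rats and 709.5, 609.5, 302, 542 and 743 in the Normal rats, a log2 fold change of 1.22 ± 0.23 (SE; edgeR adjusted p = 0.00952). Fxyd6 (chr8:49676540-49703419), a family member known from brain, had 247, 156, 207, 151 and 355 against 124, 79.3, 70.8, 80.0 and 88.8 and a log2 fold change of 1.33 ± 0.25 (SE; edgeR adjusted p = 0.008). Neither gene overlapped between the groups, Normal 3 was the lowest rat for both, and both calls held in all 10 fits that left out 1 rat. Atp1b1 (chr13:82737159-82758004) encodes the beta subunit that carries the pump to the membrane. Normalized counts of Atp1b1 were 1715, 1796, 1791, 563 and 1509 in the Hypothermia rats against 3005, 2363, 2549, 2010 and 2301. All Hypothermia rats were below all Normal rats, but Hypothermia 4 lay far below the other 4 rats of its group, and the log2 fold change of -0.73 ± 0.27, edgeR adjusted p = 0.129, missed the threshold. Without Hypothermia 4 it was -0.52 with an edgeR adjusted p of 0.025, so the smaller difference passed. Atp1b1 was also called lower with TMM scaling (-1.02, edgeR adjusted p = 0.0306) and in DESeq2 with the same size factors (DESeq2 adjusted p = 0.0367). With the replicate block it was not called (edgeR adjusted p = 0.0632). The alpha subunits of the pump were not analysed here.

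**Figure D3:**
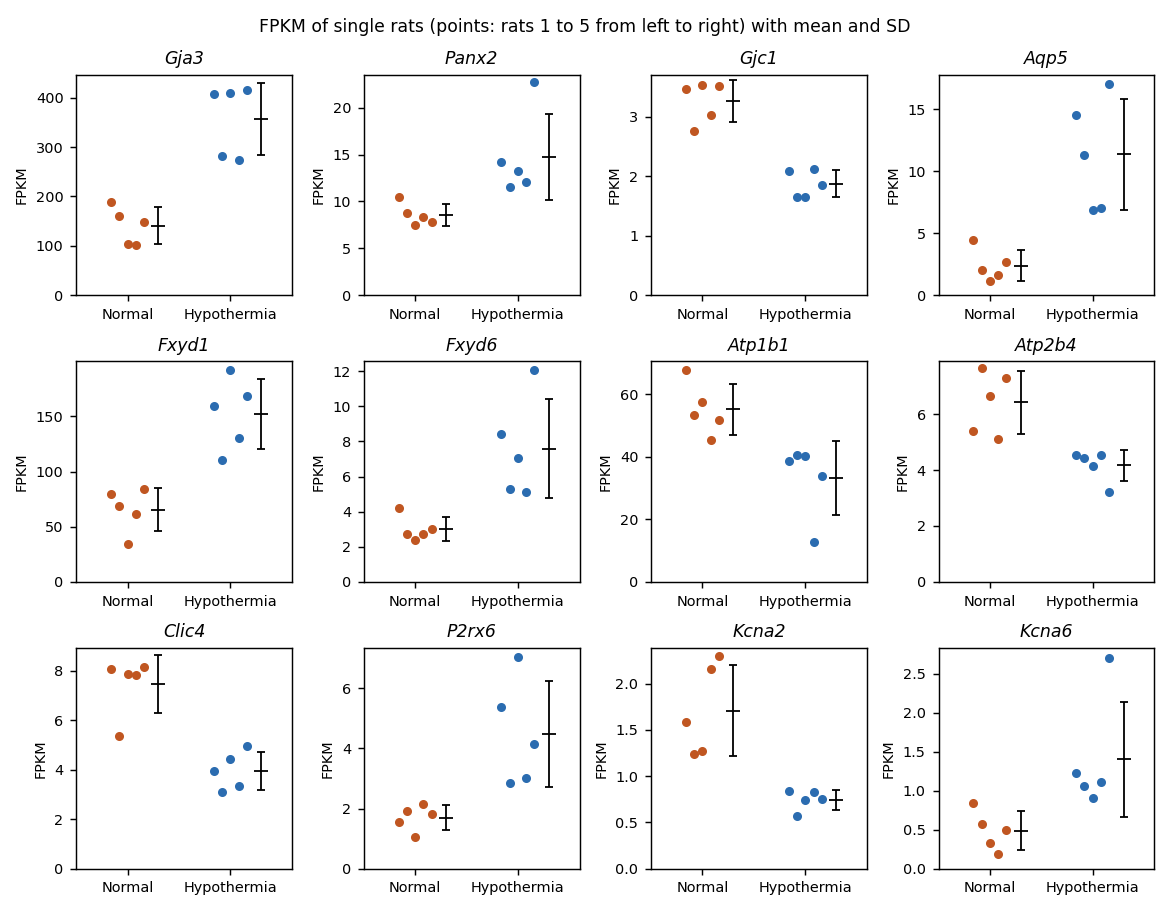
FPKM (vertical axes, from 0) of 12 members in each rat, with the mean and SD of the 5 rats of a group (bars). Gja3, Panx2, Aqp5, Fxyd1, Fxyd6, P2rx6 and Kcna6 have every Hypothermia rat above every Normal rat, and Gjc1, Atp1b1, Atp2b4, Clic4 and Kcna2 have every one below. Panx2 changes sign with listed-gene totals.

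Promoter sequence is shown for Gja3, Aqp5, Fxyd1 and Kcna2, 4 of the members whose calls exceeded 1 on the log2 scale and held with every rat left out in turn. It comes from RefSeq's GRCr8 assembly (not the build of the counts), as the 250 bases before the annotated start, read 5′ to 3′ on the gene's strand. Capitals mark letters matching a GC box (GGGCGG) or a TATA box (TATANA) on either strand.
Gja3, chr15:35322406-35322655, minus strand: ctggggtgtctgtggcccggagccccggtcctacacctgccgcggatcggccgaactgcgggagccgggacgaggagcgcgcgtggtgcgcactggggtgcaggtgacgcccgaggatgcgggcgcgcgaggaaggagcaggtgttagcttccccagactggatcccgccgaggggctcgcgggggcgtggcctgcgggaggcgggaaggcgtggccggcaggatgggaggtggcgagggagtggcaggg
Aqp5, chr7:132601278-132601527, plus strand: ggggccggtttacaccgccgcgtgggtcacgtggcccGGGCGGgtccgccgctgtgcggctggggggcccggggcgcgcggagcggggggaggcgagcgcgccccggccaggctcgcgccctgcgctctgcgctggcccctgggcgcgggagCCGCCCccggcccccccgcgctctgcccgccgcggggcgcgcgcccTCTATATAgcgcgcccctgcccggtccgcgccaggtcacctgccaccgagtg
Fxyd1, chr1:95418581-95418830, minus strand: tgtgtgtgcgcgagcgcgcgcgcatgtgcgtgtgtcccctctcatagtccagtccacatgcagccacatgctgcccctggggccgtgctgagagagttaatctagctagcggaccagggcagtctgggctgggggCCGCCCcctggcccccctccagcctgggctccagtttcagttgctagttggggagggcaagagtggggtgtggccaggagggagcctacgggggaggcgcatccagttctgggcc
Kcna2, chr2:197393280-197393529, plus strand: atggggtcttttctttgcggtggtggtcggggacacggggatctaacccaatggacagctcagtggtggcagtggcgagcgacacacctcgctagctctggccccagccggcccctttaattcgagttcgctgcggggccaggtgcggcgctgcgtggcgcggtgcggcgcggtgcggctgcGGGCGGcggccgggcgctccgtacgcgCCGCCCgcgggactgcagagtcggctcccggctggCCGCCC
The 4 windows were rich in G and C (74.4%, 83.2%, 66.8% and 72.4% in this order). Kcna2 had 3 GC boxes, Fxyd1 had 1, and Gja3 had no match to any motif searched. The Aqp5 window held 4 matches, of which the 2 TATA matches overlap each other on opposite strands. Over the 39 members with a RefSeq promoter, 25 (64.1%) held a GC box, against 30.5% of 33469 promoters, and 6 (15.4%) held the TATA letters, against 24.2%. The 33469 promoters were not limited to genes of the deposited list. Whether these shares are particular to the members among the listed genes was not tested. The GC box was in 11 of 16 members called higher and in 8 of 10 called lower. The heat shock element GAANNTTC (7.23% of all promoters) and the Maf half-site TGCTGAC (3.53%) matched no member promoter, and the AP-1 site TGANTCA (6.34%) matched that of Lrrc8e. A match is only a run of letters, and its absence says nothing about a factor.

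The calcium handling genes were 1 pump and 4 genes of calcium release and store-operated entry. Of these, 2 were called lower and none higher by edgeR (17.2% and 49.1% of all tested genes). All had an unadjusted p under 0.05 (edgeR). Atp2b4 (chr13:50091430-50153823) encodes a plasma membrane calcium pump that expels calcium from the cell. Normalized counts of Atp2b4 were 645, 628, 586, 643 and 458 in the Hypothermia rats and 765, 1088, 945, 724 and 1035 in the Normal rats. The groups did not overlap, and the log2 fold change of -0.62 ± 0.13, edgeR adjusted p = 0.0134 held in all 10 fits that left out 1 rat. Itpr2, a receptor that releases calcium from the endoplasmic reticulum when inositol trisphosphate binds, had 84.4, 95.1, 96.7, 73.5 and 108 against 139.7, 127, 175, 157 and 167 normalized counts. Its lowest Normal rat was above its highest Hypothermia rat, and the log2 fold change was -0.74 ± 0.14, edgeR adjusted p = 0.00952, also held in all 10 fits. The related Itpr1 (-0.39 ± 0.12, edgeR adjusted p = 0.0721), with overlapping groups, was not called, though it passed without Hypothermia 2 or without Normal 2. Stim1, which senses the calcium store and opens the entry channels of the surface membrane, had the highest level of these release and entry genes (14.6 FPKM) and was not called (-0.29 ± 0.10, edgeR adjusted p = 0.108). Ryr3, a ryanodine receptor, pointed the other way at 1.07 ± 0.33, edgeR adjusted p = 0.0612. Among the fits that left out 1 rat, Ryr3 was called only without Hypothermia 4 (1.24, edgeR adjusted p = 0.0305). DESeq2 with the same size factors called Ryr3 too (DESeq2 adjusted p = 0.02025), but TMM scaling did not (edgeR adjusted p = 0.3292). Its sign turned with listed-gene totals (-0.16).

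Of 4 P-type ATPases that move lipids or polyamines, 1 was called higher and 1 lower (49.1% and 17.2% of all tested genes). Atp13a2, a lysosomal polyamine transporter, had 2140, 1906, 2192, 1983 and 2162 normalized counts in the Hypothermia rats and 1616, 1751, 1651, 1725 and 1801 in the Normal rats. The groups did not overlap, yet the log2 fold change of 0.28 ± 0.07, edgeR adjusted p = 0.0257, was below the median of all genes and turned to -0.011 with TMM scaling. Atp8b2, a flippase of the plasma membrane, was called lower (-0.33 ± 0.08, edgeR adjusted p = 0.0293) with overlapping groups, since Hypothermia 2 exceeded Normal 1. The flippase Atp8a2 was not called (1.41 ± 0.54, edgeR adjusted p = 0.149). Its values varied widely, from 17.6 to 141 normalized counts in the Hypothermia rats and from 13.1 to 53.6 in the Normal rats.

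Among sodium channel genes, Scn1a, which encodes a pore-forming subunit known from neurons, had 9.65, 23.0, 6.28, 16.3 and 12.1 normalized counts in the Hypothermia rats and 16.6, 24.5, 29.4, 40.8 and 38.5 in the Normal rats. These values overlapped, and the log2 fold change of -1.13 ± 0.37, edgeR adjusted p = 0.0802, was not called, although it passed without Hypothermia 2 or without Normal 1. Asic4, of the acid-sensing channel family, was not called either (-1.26 ± 0.47, edgeR adjusted p = 0.133).

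Potassium channel genes made the largest group, with 12 listed and 11 tested. Of these 11, 3 were called higher and 3 lower (49.1% and 17.2% of all tested genes), and 5 neither. The median log2 fold change was -0.71 (0.36 for all tested genes), and 8 of 11 were below 0 (36.3% of all tested genes). Kcna2 (chr2:209838869-209852471), a delayed rectifier subunit of the Shaker family, had 163, 109.8, 144, 161 and 146 normalized counts in the Hypothermia rats and 309, 240.5, 247, 418 and 446 in the Normal rats. Every Hypothermia rat was below every Normal rat, and the log2 fold change was -1.20 ± 0.19 (SE; edgeR adjusted p = 0.00596), held in all 10 fits that left out 1 rat. Kcnab2, the cytosolic beta subunit that binds channels of the Kcna2 family, was also lower (13.3, 16.7, 12.6, 14.3 and 24.2 against 28.7, 27.8, 39.0, 28.8 and 50.3). Its groups did not overlap, at a log2 fold change of -1.11 ± 0.29 (SE; edgeR adjusted p = 0.0292). Another Shaker member, Kcna6 (chr4:159253934-159287193), was higher in the Hypothermia Group (136, 118, 102, 124 and 301 against 94.3, 63.8, 36.6, 21.6 and 55.8). Hypothermia 5 stood far above the rest, and without it the log2 fold change of 1.52 ± 0.40, edgeR adjusted p = 0.0348, became 1.15 and lost its call. Within this channel family, Kcna2 and its partner Kcnab2 were thus called lower and Kcna6 higher in the reported fit. Only the call of Kcna2 held with every rat left out in turn.

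Kcnj12 (chr10:47281786-47341411), an inward rectifier of the kind that holds the resting potential, was the most abundant potassium channel gene at 87.5 FPKM. Normalized counts of Kcnj12 were 3692, 3799, 3441, 3642 and 3828 in the Hypothermia rats and 2954, 2979, 3290, 2870 and 3032 in the Normal rats. All Hypothermia rats were above all Normal rats by a narrow margin, and the log2 fold change of 0.28 ± 0.07, edgeR adjusted p = 0.0295, was below the median of all genes and turned to -0.0036 with TMM scaling. Kcne2, an auxiliary subunit that alters the gating of several channels, was called higher (1.06 ± 0.29, edgeR adjusted p = 0.0423), with Normal 1 above Hypothermia 3 and 4 and Hypothermia 5 at 681 normalized counts above all others; its sign turned with listed-gene totals (-0.17). The ether-a-go-go channel Kcnh1 was called lower (-0.45 ± 0.11, edgeR adjusted p = 0.0254) with overlapping groups. Calls were missed by the hyperpolarization-activated channel Hcn2 (-0.71 ± 0.23, edgeR adjusted p = 0.0691), the small-conductance calcium-activated channel Kcnn3 (-1.14 ± 0.41, edgeR adjusted p = 0.11) and the large-conductance channel Kcnma1 (-1.20 ± 0.40, edgeR adjusted p = 0.0813). Kcnma1 had 2.09 to 14.5 normalized counts in the Hypothermia rats and 15.7 to 29.4 in the Normal rats, without overlap. Hcn2 passed without Normal 1 (adjusted p = 0.00706, edgeR). Kcnk7, a silent member of the tandem-pore family, had too few counts for the fit, with 8.44, 13.6, 15.1, 11.2 and 13.4 against 0.925, 2.45, 2.39, 0.800 and 6.41. All Hypothermia rats were above all Normal rats, and without the filter on low counts the log2 fold change was 2.21 ± 0.52 (SE; edgeR adjusted p = 0.019).

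Chloride channels and the CLIC proteins, which exist in soluble and membrane forms, numbered 9. Of these, 2 were called higher and 3 lower (49.1% and 17.2% of all tested genes), and 4 neither. Clic4 had 76.0, 59.6, 85.4, 64.3 and 95.4 normalized counts in the Hypothermia rats and 155, 103, 151, 150.3 and 156 in the Normal rats. Even Normal 2, the lowest of its group, was above every Hypothermia rat, and the log2 fold change was -0.92 ± 0.18 (SE; edgeR adjusted p = 0.00906), held in all 10 fits that left out 1 rat. Clcn5, an endosomal chloride-proton exchanger (-0.91 ± 0.24, edgeR adjusted p = 0.0304), and Lrrc8e, a subunit of the volume-regulated anion channel (-0.77 ± 0.20, edgeR adjusted p = 0.0312), were also called lower without overlap. The calcium-activated chloride channel Ano1 had 875, 921, 948, 605 and 302 against 1113, 1703, 1330, 1226 and 1522 normalized counts. Its groups did not overlap, Hypothermia 5 was lowest, and the log2 fold change of -0.92 ± 0.27, edgeR adjusted p = 0.0538, missed the threshold narrowly. Without Hypothermia 5 the value was -0.72 and passed (adjusted p = 0.0263, edgeR). Ano1 also passed with TMM scaling (edgeR adjusted p = 0.01927) and in DESeq2 with the same size factors (DESeq2 adjusted p = 0.005852). It did not pass with the replicate block (edgeR adjusted p = 0.08575).

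In the opposite direction, Clic3 had 509, 518, 370.3, 450.1 and 812 normalized counts in the Hypothermia rats and 401, 116, 124, 80.0 and 124 in the Normal rats. Normal 1 lay among the Hypothermia rats, and the log2 fold change was 1.66 ± 0.42, edgeR adjusted p = 0.0312. Clic3 (chr3:2676296-2680565) overlaps Paxx (chr3:2678956-2680622) on the other strand, and the sources used here do not say whether reads were counted by strand. Reads in the shared stretch therefore cannot be told apart. Paxx itself did not pass the filter on low counts. Clic5 showed the same rat apart, with 1294, 1375, 489.6, 712 and 1794 against 643, 182, 24.7, 76.0 and 170.3. Its log2 fold change of 2.38 ± 0.70, edgeR adjusted p = 0.0573, was not called, and without Normal 1 it was 3.33 with an edgeR adjusted p of 0.0075. DESeq2 with the same size factors called Clic5 (DESeq2 adjusted p = 0.016), but TMM scaling did not (edgeR adjusted p = 0.1029). Normal 1 also had the most Mip of the Normal rats, a lens fibre gene whose part in these differences was not tested. Clcn6, a late endosomal exchanger, was called higher by little (0.27 ± 0.07, edgeR adjusted p = 0.0279) and turned to -0.021 with TMM scaling. Clic1, the most abundant of the group at 52.4 FPKM, was not called (0.28 ± 0.10, edgeR adjusted p = 0.119) and turned likewise (-0.0065). Clic6 had 44.6, 19.9, 10.04, 11.2 and 16.1 against 75.8, 22.1, 7.16, 114 and 146 normalized counts. Normal 1, 4 and 5 were high and Normal 3 was below every Hypothermia rat, and its -1.84 ± 0.72, edgeR adjusted p = 0.174 was not called.

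**Figure D4:**
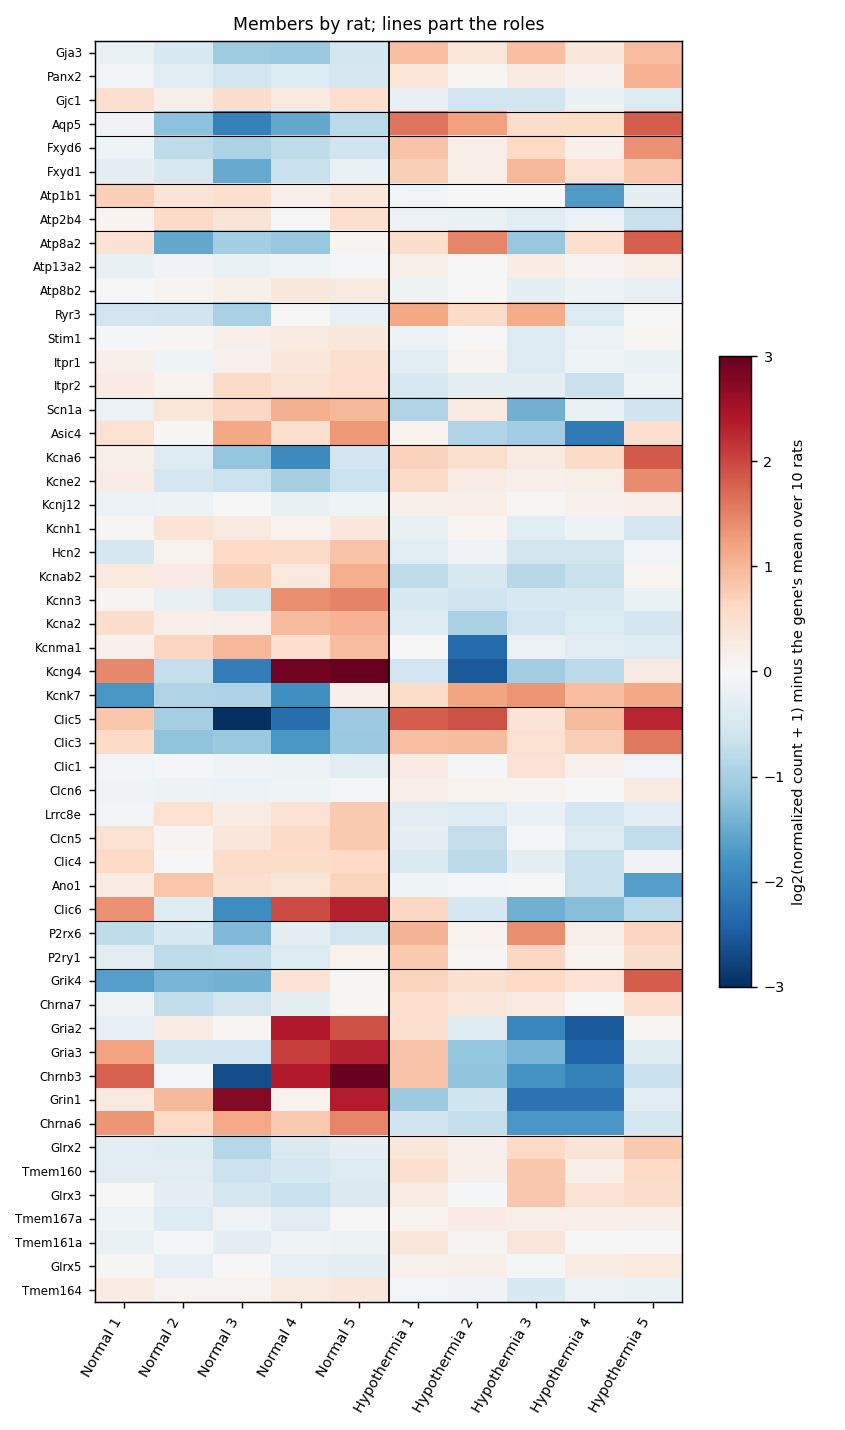
Of the 58 members, 53 (vertical axis, parted by role) in the 10 rats (horizontal axis), as log2(normalized count + 1) minus the gene's mean over the rats, blue for low and red for high. Kcng4, Clic6, Gria3 and Chrnb3 are deep red in Normal 4 and 5, Grin1 in Normal 3 and 5, while Aqp5 and Clic5 are red across the Hypothermia rats.

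Both purinergic receptor genes, whose products sense extracellular ATP and ADP, were called higher (49.1% of all tested genes). Normalized counts of P2rx6 (chr11:87435185-87445219), an ATP-gated channel subunit, were 205, 109, 267, 114 and 157 in the Hypothermia rats and 59.2, 73.6, 39.8, 82.4 and 68.7 in the Normal rats. The groups did not overlap, and the log2 fold change was 1.39 ± 0.28 (SE; edgeR adjusted p = 0.0102), held in all 10 fits that left out 1 rat. P2ry1, a receptor coupled to G proteins and calcium release, was called at 0.84 ± 0.21, edgeR adjusted p = 0.0232, with Normal 5 above Hypothermia 2, and its sign turned with listed-gene totals (-0.40).

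Neurotransmitter receptor genes had few counts. Of 9 listed, 6 passed the filter, and 1 was called, as higher (49.1% of all tested genes). Chrna7, which forms a calcium-permeable nicotinic receptor, had 125, 113, 105, 88.8 and 126 normalized counts in the Hypothermia rats and 82.3, 52.4, 59.7, 73.6 and 90.6 in the Normal rats. Normal 5 was slightly above Hypothermia 4, and the log2 fold change of 0.64 ± 0.19, edgeR adjusted p = 0.0484, turned to -0.58 with listed-gene totals. Grik4, a kainate receptor subunit, was not called (1.56 ± 0.55, edgeR adjusted p = 0.0993), although its 5 Hypothermia rats (11.23 to 30.9 normalized counts) were above the Normal rats (1.85 to 11.20) by a narrow margin. The AMPA receptor subunits Gria2 (-1.80 ± 0.69, edgeR adjusted p = 0.151) and Gria3 (-1.89 ± 0.74, edgeR adjusted p = 0.169) were not called and overlapped.

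Several of the members with large negative values were high in some of the Normal rats and not in others. Kcng4, a silent potassium channel subunit, had 47.2, 9.82, 3.18, 131 and 153 normalized counts in Normal rats 1 to 5 and 10.8, 2.09, 7.53, 9.19 and 20.1 in Hypothermia rats 1 to 5. Normal 1, 4 and 5 were high and Normal 2 and 3 were within the Hypothermia range, and the log2 fold change of -2.80 ± 0.95, edgeR adjusted p = 0.0945, was not called. The nicotinic subunit Chrnb3 had 55.5, 14.7, 1.59, 84.8 and 167 in the Normal rats and 28.9, 6.27, 3.77, 3.06 and 9.40 in the Hypothermia rats, and Gria3 had 74.0, 21.3, 20.7, 135 and 161 and 57.9, 13.6, 11.3, 5.10 and 24.2. For both genes Normal rats 1, 4 and 5 were again highest, and Hypothermia 1 lay above Normal 2 and Normal 3. The ciliary epithelium marker Mfrp had 439, 164, 86.7, 696 and 1301 in the Normal rats and 219, 104, 46.5, 36.7 and 239 in the Hypothermia rats, and was the 1 listed of 9 markers of that tissue. Of 9 fibroblast and matrix markers 4 were listed (Fbn1, Fn1, Col1a1 and Thbs2), and they summed, mostly through Fbn1, to 2055 to 30940 normalized counts in the Normal rats and to 945 to 4970 in the Hypothermia rats. Mfrp, Fbn1 and Thbs2 were highest in Normal 4 and 5, as were these members. Col1a1 (40.7, 35.2, 271, 534 and 60.4 in the Normal rats) was highest in Normal 3 and 4, and Fn1 (256, 124, 975, 106 and 221), the only one of the 4 called (-3.09 ± 0.80, edgeR adjusted p = 0.0344), was highest in Normal 3. The part of such cells in the members' values was not tested. Without Normal 3, the rat with the lowest values, the log2 fold changes of Kcng4 (-3.11, adjusted p = 0.0337), Clic6 (-2.13, adjusted p = 0.0449) and Chrnb3 (-2.97, adjusted p = 0.0401) passed in edgeR.

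Grin1, the obligate subunit of NMDA receptors, followed another set of rats. Normalized counts of Grin1 were 4.62, 8.18, 30.2, 4.00 and 22.9 in Normal rats 1 to 5 and 1.21, 2.09, 0, 0 and 2.69 in Hypothermia rats 1 to 5. Normal 3 and 5 were highest, the groups did not overlap, and a count of 0 still allows up to 3 reads in a rat. Grin1 was left out by the filter on low counts, and without it Grin1 was called (-3.45 ± 0.87, edgeR adjusted p = 0.0259). The neuronal gene Nefl had 4.62, 10.6, 16.7, 4.00 and 34.8 normalized counts in the Normal rats and 0 in all 5 Hypothermia rats, and the retinal gene Gpr179 had 9.25, 21.3, 50.9, 12 and 65.9 and 7.24, 0, 0, 0 and 18.8. Of 12 neuron markers 7 were listed, summing to 153 to 313 against 100 to 217 normalized counts in the Normal and Hypothermia rats. These markers did not move together, as Tubb3 was called higher (1.49 ± 0.41, edgeR adjusted p = 0.0388), Nrxn2 lower (-1.84 ± 0.50, edgeR adjusted p = 0.0365), and Rbfox3 was 0.90 on the log2 scale and not called. Of 16 retina markers 3 were listed, summing, mostly through Glul, to 5124 to 9562 against 3118 to 5418. Glul was highest in Normal 4 and 5 (9340 and 9163), not in Normal 3 and 5. The part of cells with such markers in the values of Grin1 was not tested. Chrna6, a nicotinic subunit whose gene lies beside Chrnb3, had 7.40, 4.09, 6.37, 4.80 and 8.24 in the Normal rats and 1.21, 1.04, 0, 0 and 1.34 in the Hypothermia rats. Its Normal rats were even and all above the Hypothermia rats, and without the filter it was called (-2.93 ± 0.67, edgeR adjusted p = 0.0172).

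**Figure D5:**
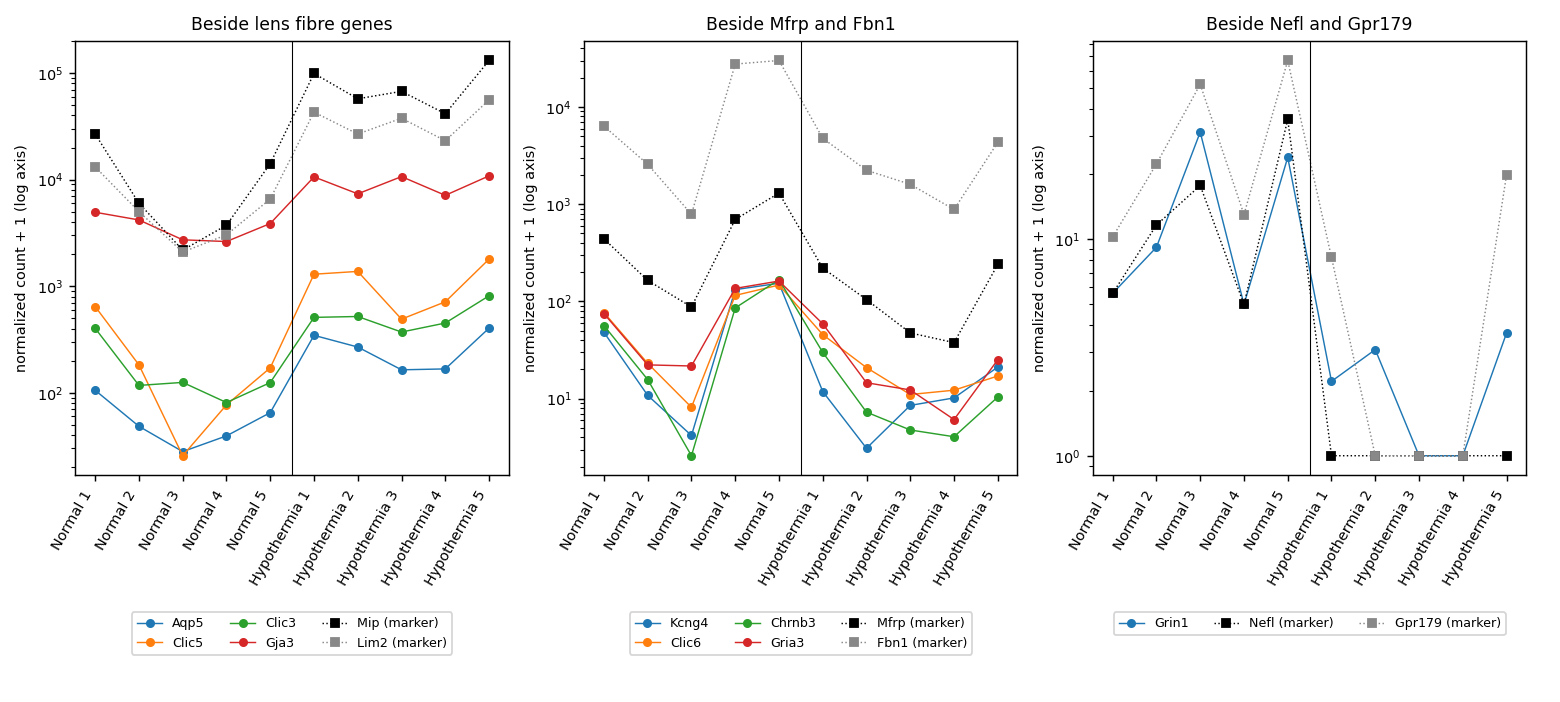
Normalized counts + 1 on a log axis (vertical) in the 10 rats (horizontal), for members (circles) beside marker genes of other cells (squares). Left, Aqp5, Clic5, Clic3 and Gja3 beside the fibre genes Mip and Lim2, all lower in Normal 3 and 4 than in Normal 1; centre, Kcng4, Clic6, Chrnb3 and Gria3 beside Mfrp and Fbn1, all highest in Normal 4 and 5; right, Grin1 beside Nefl and Gpr179, high in Normal 3 and 5 and near 0 in most Hypothermia rats.

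The spread between rats was uneven over the roles. The median coefficient of variation in the Normal Group was 81.1% for the neurotransmitter receptors, 30.9% for potassium channels, 18.1% for chloride channels and 13.4% for connexins and pannexins, beside 13.2% over the whole table. In the Hypothermia Group these values were 93.6%, 20.7%, 21.5% and 20.4%, beside 14% over the whole table. Of the 25 calls among channel and pump members, 11 held in all 10 fits that left out 1 rat, among them Gja3, Aqp5, Fxyd1, Fxyd6 and P2rx6 as higher, and Gjc1, Atp2b4, Itpr2, Kcna2 and Clic4 as lower. The other 14 were lost at least once. Clic3 and Lrrc8e were lost in 9 of 10 fits (all but the fit without Normal 1), with edgeR adjusted p up to 0.0788 and 0.083. Atp8b2, Chrna7, Clcn5, Kcna6, Kcne2 and Kcnj12 were lost in 7 fits, Kcnab2, Kcnh1 and P2ry1 in 6, Atp13a2 and Clcn6 in 5 and Panx2 in 2, with adjusted p up to 0.113 (Chrna7, edgeR). Among these 25 calls, leaving out Normal 1 ended only that of Kcnj12, and each of the other rats ended several. Among the members that are not channels, leaving out Normal 1 also ended the call of Tmem161a. The count of members called higher was 12 without Hypothermia 1, 12 without Hypothermia 5, 13 without Normal 2, 13 without Normal 3 and 10 without Normal 4. The count called lower was 6 without Hypothermia 1, 7 without Hypothermia 3, 7 without Normal 4 and 5 without Normal 5.

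Other genes of lens ion and water transport, outside the name rule, were taken from lists. Of 7 water and junction proteins, 4 were listed, and the fibre water channel Mip (2.91), its membrane neighbour Lim2 (2.64) and the connexin-like Gje1 (1.84) were called higher on the log2 scale, while the epithelial connexin Gja1 (-0.43 ± 0.14, edgeR adjusted p = 0.0668) was not called. Of 23 cotransporters and exchangers, 8 were listed. The potassium-dependent sodium-calcium exchangers Slc24a2 (2.78) and Slc24a4 (1.23) and the sodium-chloride cotransporter Slc12a3 (2.14) were called higher, and the potassium-chloride cotransporter Slc12a7 (-0.53) and the scaffold Slc9a3r2 (-0.65) lower. Of 27 kinases, calcium sensors and anchors that act on channels, 10 were listed and 8 called higher (49.1% of all tested genes were called higher), among them Stk39, a kinase of cotransporters (1.37), the anchor Akap2 (1.99) and the calcium store protein Casq2 (1.69). All 4 listed subunits of the vacuolar proton pump (of 18) and all 5 listed genes of the mitochondrial calcium uniporter and porins (of 11) were called higher, with medians of 0.34 and 0.44 beside 0.36 for all tested genes.

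Of the 7 members that only share letters with a channel stem, 5 were called higher and 1 lower (49.1% and 17.2% of all tested genes). The other 1 was called neither way, and their median log2 fold change was 0.35 beside 0.36 for all tested genes. The mitochondrial glutaredoxin Glrx2 (0.91 ± 0.14, edgeR adjusted p = 0.0054), the iron-sulfur carrier Glrx3 (0.78 ± 0.16, edgeR adjusted p = 0.0121) and Tmem160 (0.90 ± 0.13, edgeR adjusted p = 0.0054) kept their calls in all 10 fits that left out 1 rat, and all 3 turned negative with listed-gene totals. Smaller calls were those of Tmem167a (0.35 ± 0.09, edgeR adjusted p = 0.0246) and Tmem161a (0.32 ± 0.09, edgeR adjusted p = 0.0456), which also turned with listed-gene totals, and of Tmem164 (-0.38 ± 0.09, edgeR adjusted p = 0.0189). Glrx5 was not called (0.30 ± 0.09, edgeR adjusted p = 0.0521).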

How the data were processed

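RNA-seq of 10 lens capsule samples was analysed, 5 rats per group. According to the study's methods and the submitters' processing notes, reads from NEBNext Ultra libraries were aligned to Rnor_6.0 with HISAT2 2.0.5, and the deposited counts are whole reads per gene from featureCounts 1.5.0-p3. FPKM were deposited by the authors and are scaled by the same size factors. The 2 columns of group means were deposited as normalized counts, a signal on the count scale. The authors also deposited results of their own comparison with DESeq2 1.16.1 (log2 fold change, p-value, adjusted p), which were not used.

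Size factors were recovered by weighted least squares from the deposited group means (largest relative error 4.89e-10). The 3334 genes' counts entered edgeR 4.0.16 (R 4.3.3; filterByExpr with a minimum count of 10, robust glmQLFit, glmQLFTest), with group as the only factor. As the table is a selected list, p-values were adjusted (Benjamini-Hochberg) over an assumed 20000 genes, and a gene was called at an adjusted p under 0.05. Of the 58 members, 4 did not pass the filter. SE is the log2 fold change over the root of F. Depth per rat was known for the listed genes only. On simulated counts of 3334 genes, 80.5% of 200 genes changed by 1 (log2) were called, and 1 unchanged gene. Every simulated gene had the same dispersion and most were unchanged, unlike the real genes, so these results do not carry over to the members. Genes without a name numbered 124, and 8 names occurred more than once.

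The members and lists were chosen with earlier results of these data known. Named were all calls above 1 in size, the most abundant member of each role, the 3 highest and 3 lowest of roles with 6 or more tested members, connexins, aquaporins, FXYD genes and pumps, members below the filter, members that are not channels, and partner subunits. A few of these genes are not reported here by name, though the counts include them. Promoters are from RefSeq (GRCr8), matched by symbol for 39 of 58 members. Alternatives were TMM, median-of-ratios and listed-gene total scaling, DESeq2 1.42.0, robust = FALSE, no filter, other adjustments, a threshold of 0.01, a replicate block, each rat left out, and, chosen after seeing the data, TMM with adjustment over the tested genes. Same-numbered rats are different animals. Figures were drawn with matplotlib 3.10.9.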

Additional observations from a re-analysis of the deposited data

Results flagged for a closer look

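In 10 of 106 groups of 5 rats (53 members, 2 groups each), 1 rat lay far from the other 4 by Dixon's criterion of a gap over 0.71 of the group's range. Chance marks about 1 in 20 groups where the groups are independent and their values normally distributed. These groups are counts, some of them low, from the same 10 rats, so that rate does not apply. All values are normalized counts.

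Hypothermia 5 was high for 4 members. It had 1106 for Panx2 (the other Hypothermia rats 560 to 691), 301 for Kcna6 (102 to 136), 681 for Kcne2 (285 to 382) and 30.9 for Grik4 (11.2 to 13.3). Hypothermia 1 was high for Clic6 at 44.6 (10.04 to 19.9) and for Chrnb3 at 28.9 (3.06 to 9.40). Hypothermia 4 was low for Atp1b1 at 563 (1509 to 1796).

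In the Normal Group, rat 1 was high for Clic5 at 643 (24.7 to 182) and for Clic3 at 401 (80.0 to 124). Normal 2 was low for Clic4 at 103 (150.3 to 157).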

How the results depend on the processing

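Scaling by TMM, median-of-ratios and listed-gene totals moved the median of all genes by -0.29, -0.31 and -1.23 on the log2 scale. The test and the adjustment moved the counts of calls too. Members called higher and lower, 20 and 11 in the reported fit, were 10 and 19 with TMM, 10 and 19 with median-of-ratios factors, 2 and 34 with listed-gene totals, 6 and 4 at an adjusted p under 0.01, and 11 and 3 with the replicate block. DESeq2 called 25 lower with the same size factors and 31 with its own, adjustment over the tested genes called 28 lower, and TMM with that adjustment, chosen after seeing the data, 15 higher and 28 lower. Leaving out 1 rat gave 10 to 21 higher and 5 to 14 lower. The other settings (no filter, robust = FALSE, adjustment over 30000 genes) gave 16 to 21 higher and 11 to 13 lower. Apart from the altered assumptions built into each setting, the cause was not tested. Over all genes, 1582 were called higher and 554 lower, against 604 and 1090 with TMM, 579 and 1091 with median-of-ratios factors, 55 and 2350 with listed-gene totals, 656 and 90 with the replicate block, 503 and 64 at 0.01, and 2052 and 1169 with adjustment over the tested genes; DESeq2 gave 1922 and 913 with the same size factors and 787 and 1228 with its own.

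Log2 fold changes that turned sign did so under scaling settings. Atp13a2, Kcnj12, Clic1 and Clcn6 were -0.011, -0.0036, -0.0065 and -0.021 with TMM (with either adjustment), -0.035, -0.028, -0.030 and -0.044 with median-of-ratios factors, -0.035, -0.028, -0.030 and -0.045 in DESeq2 with its own size factors, and -0.97, -0.96, -0.96 and -0.97 with listed-gene totals. Glrx5 was -0.0018 with median-of-ratios factors and in DESeq2 with its own size factors, and -0.93 with listed-gene totals. Listed-gene totals also gave -0.48 for Panx2, -0.16 for Ryr3, -0.17 for Kcne2, -0.40 for P2ry1, -0.58 for Chrna7, -0.33 for Glrx2, -0.35 for Tmem160, -0.46 for Glrx3, -0.88 for Tmem167a and -0.92 for Tmem161a. No other setting turned these genes, and with TMM Panx2, Ryr3, Kcne2, P2ry1 and Chrna7 were 0.49, 0.77, 0.78, 0.54 and 0.35. The totals include the lens fibre markers, with 4059657 to 8588775 normalized counts in the Hypothermia Group against 737180 to 3046434 in the Normal Group. The part of fibre genes in these turns was not tested. No member turned sign in the fits that left out 1 rat.

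Same-numbered rats of the groups are different animals, and their deviations from the group means correlated at 0.035, -0.17, 0.034, -0.11 and 0.23, so the numbers were not taken as pairs, and the replicate block stands above as a count only. The depth of a rat was known for the listed genes alone, and members under 1 FPKM rest on few reads.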

Other observations

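Some members lie under 250 kb apart in Rnor_6.0. Chrna6 and Chrnb3 are 8.99 kb apart on chromosome 16 on opposite strands, and Chrnb3 was fitted (-2.65, not called) while Chrna6 was under the filter on low counts. Kcne2 and Clic6, 208 kb apart on chromosome 11 on the same strand, had log2 fold changes of 1.06 (called) and -1.84 (not called). Grin1, under the filter, and Clic3 (1.66, called) are 142 kb apart on chromosome 3.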
